A study of Mus musculus with 6 samples.

Results

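The TAM receptors Axl, Mertk and Tyro3, their bridging ligands Gas6 and Pros1, and the milk fat globule protein Mfge8 were read in RAW 264.7 cells, a mouse macrophage line. Cells cultured for 48 h in the presence of 100 ng/ml LPS (lipopolysaccharide) and 100 pM LBP (LPS-binding protein) were set against untreated cells of the same culture time. LPS comes from the outer membrane of Gram-negative bacteria, and serum LBP delivers it to its receptor complex on the cell. All probes whose platform annotation gave 1 of these 6 gene symbols were taken, which gave 8 of the 16281 probes: 3 for Tyro3 and 1 for each other gene. The treated and the untreated RNA were hybridised together on 6 two-colour arrays, 3 with the treated RNA in Cy5 and 3 with it in Cy3, and each orientation had arrays labelled set 1, set 2 and set 3. RAW 264.7 is a single transformed line, and some label fields give its name as RAW 264.4.

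TAM receptors are receptor tyrosine kinases. Gas6 and protein S, the product of Pros1, bind phosphatidylserine on dying cells through their vitamin K-dependent Gla domains and bind the receptors with their other end, so that a macrophage can take up the dying cell, a process called efferocytosis. Gas6 can activate every TAM receptor, and protein S acts on Mertk and Tyro3. Mfge8 also binds phosphatidylserine but hands the cell to alpha-v integrins. In mouse macrophages Mertk is known as the receptor of resting cells and Axl as the one that inflammatory stimuli induce, and TAM signalling works with the type I interferon receptor to raise the Socs inhibitors that damp cytokine production.

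After LPS and LBP, Axl rose 6.41-fold and Pros1 rose 1.88-fold, while Gas6 fell 2.07-fold. The probes of Mertk and Mfge8 did not pass the test, and of the 3 Tyro3 probes 1 passed, with a small increase. Values are treated over untreated. They are read as log2, though the base was not given, and the folds rest on that reading. A mean is given ± SD of the 3 set means (n = 3), each set mean being the average of both dye orientations. A probe counted as changed at an adjusted p under 0.05 from limma, fitted to all 12724 probes with a ratio on every array. Of these probes 27.1% were called, 14.8% as higher and 12.2% as lower in treated cells. Of the 8 member probes, all of which had a ratio on every array, 3 were called higher and 1 lower. No label states that each set was a culture of its own. The p-values therefore cover the spread between sets, which may be technical.

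**Figure D1:**
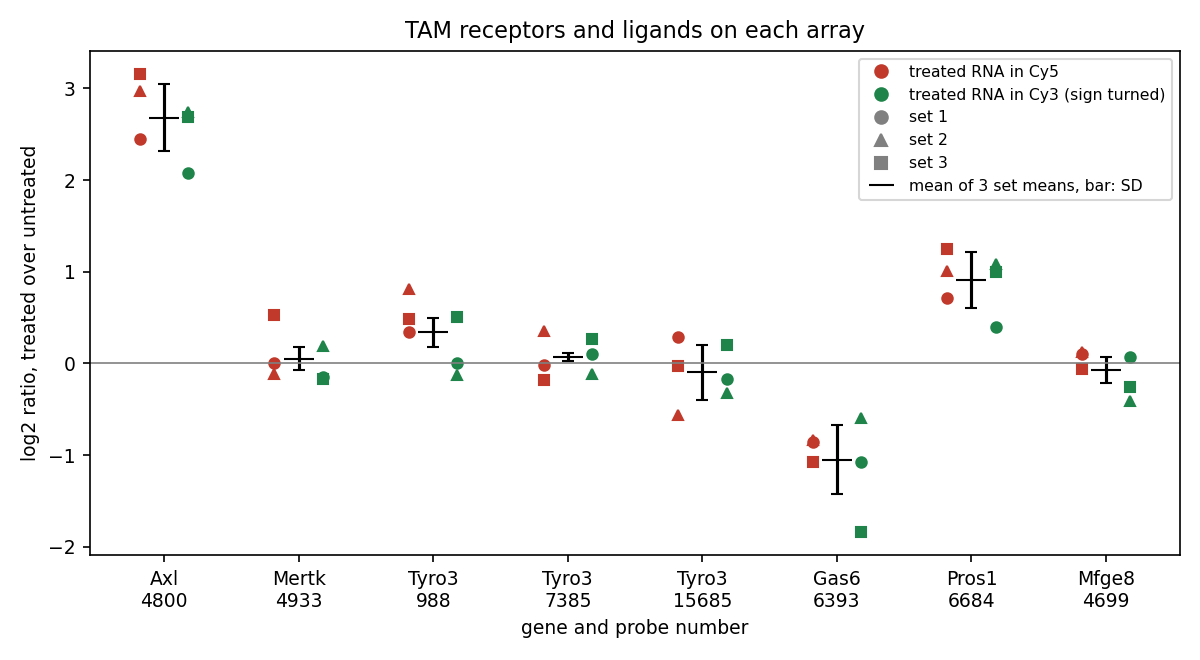
Each point is the log2 ratio of treated over untreated cells on 1 array (y axis) for 1 probe (x axis, gene and probe number), coloured by dye orientation and shaped by set, and the black marks give the mean and SD of the 3 set means. All 6 points of Axl lie between 2.08 and 3.16 and all 6 of Pros1 between 0.40 and 1.25, all 6 of Gas6 lie between -1.84 and -0.60, and the points of Mertk, Mfge8 and each Tyro3 probe fall on both sides of 0.

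The upstream sequences of the 3 genes with the clearest changes are shown so that the moving members can be read side by side. They are the 250 bases before the annotated start in RefSeq (GRCm38.p6), 5′ to 3′ on the strand of the gene, with capitals marking matches to the motifs searched. Axl lies on the minus strand (chr7:25788734-25788983), Pros1 on the plus strand (chr16:62854057-62854306) and Gas6 on the minus strand (chr8:13494536-13494785).
Axl: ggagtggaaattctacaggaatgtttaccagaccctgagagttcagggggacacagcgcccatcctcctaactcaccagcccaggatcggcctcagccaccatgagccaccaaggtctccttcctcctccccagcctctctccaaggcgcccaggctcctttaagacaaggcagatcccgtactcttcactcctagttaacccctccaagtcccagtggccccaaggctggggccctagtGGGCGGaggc
Pros1: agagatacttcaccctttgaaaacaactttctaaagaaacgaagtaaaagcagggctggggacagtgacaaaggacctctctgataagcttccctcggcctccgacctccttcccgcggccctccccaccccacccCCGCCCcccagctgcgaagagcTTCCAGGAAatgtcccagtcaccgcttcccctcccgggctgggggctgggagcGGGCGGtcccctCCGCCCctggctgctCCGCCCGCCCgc
Gas6: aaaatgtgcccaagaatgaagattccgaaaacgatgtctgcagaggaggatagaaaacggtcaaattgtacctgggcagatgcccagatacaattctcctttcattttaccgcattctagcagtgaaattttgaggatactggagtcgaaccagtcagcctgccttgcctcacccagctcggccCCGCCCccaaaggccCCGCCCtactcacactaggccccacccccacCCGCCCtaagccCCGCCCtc
The motifs searched on both strands were the interferon response core GAAANNGAA, the STAT core TTCNNNGAA, an NF-kB form GGNNTTTCC, the AP-1 form TGANTCA and the GC box GGGCGG. Axl held 1 GC box, Gas6 held 4 and Pros1 held 5, with the 2 nearest the start overlapping. Pros1 also held 1 STAT core, TTCCAGGAA, from 92 to 84 bases before the start. Among 32851 upstream windows of this length, 32.7% held a GC box, 7.02% a STAT core, 7.13% an interferon response core, 4.93% the NF-kB form and 6.75% the AP-1 form. The windows of Mertk, Tyro3 and Mfge8 held 3, 3 and 4 GC boxes. The 6 member windows were 54.8% to 73.2% G or C, where the median of all windows was 52.4%. Apart from the STAT core of Pros1, none of the 6 windows held any of the other 4 motifs. No match in a window of this length says only that these letters are not there.

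Axl, the TAM receptor that binds Gas6 with the highest affinity, was measured by probe 4800 (Entrez gene 26362). It read 2.44, 2.97 and 3.16 on the arrays of sets 1, 2 and 3 with treated RNA in Cy5. With treated RNA in Cy3 and the sign turned it read 2.08, 2.74 and 2.69. Every array was far above 0, and set 1 gave the lowest ratio in both orientations. The mean was 2.68 ± 0.36 (95% interval 2.38 to 2.98, adjusted p = 3.48e-06), and 60 of the 12724 probes had a higher mean. The increase passed the test under all 17 alternatives tried, with values from 2.56 to 2.89.

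Mertk, a main engulfment receptor of mouse macrophages, was measured by probe 4933 (Entrez gene 17289). Its ratios were 0.0027, -0.11 and 0.53 on the Cy5 arrays, and -0.14, 0.20 and -0.17 on the turned Cy3 arrays. The arrays were split evenly, 3 above and 3 below 0. The mean was 0.05 ± 0.13 and did not pass (adjusted p = 0.733, limma), with a 95% interval from -0.16 to 0.26. The ratio of Axl exceeded that of Mertk by 2.63 ± 0.26 over the 3 set means, and on all 6 arrays.

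Tyro3, a TAM receptor better known from the nervous system, had 3 probes that did not agree. Probe 988 had ratios of 0.35, 0.81 and 0.49 on the Cy5 arrays, and of 0.0051, -0.12 and 0.51 on the turned Cy3 arrays, so that 5 of 6 arrays were above 0. Its mean of 0.34 ± 0.16 passed (adjusted p = 0.0302, limma), but the call was lost in 8 of 16 alternatives. It was lost with ratios of 0 kept as values (adjusted p = 0.119), with the set as a random block (0.0868), without set 2 (0.111), without set 3 (0.161), and without 4 of the single arrays (0.0575 to 0.0893). The other probes went both ways between arrays. Probe 7385 lay between -0.18 and 0.35 with a mean of 0.07 ± 0.04 (adjusted p = 0.593), and probe 15685 between -0.56 and 0.29 with a mean of -0.10 ± 0.30 (adjusted p = 0.600). Averaged over its probes, Tyro3 stood at 0.10 and did not pass (adjusted p = 0.404, limma fit over genes).

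Among the ligands, Gas6 and Pros1 went opposite ways. Gas6, the ligand shared by all TAM receptors, was measured by probe 6393 (Entrez gene 14456). With treated RNA in Cy5 its ratios were -0.86, -0.84 and -1.07, and they were -1.07, -0.60 and -1.84 in Cy3 with the sign turned. All 6 arrays were below 0, and set 3 was lowest in both orientations. The mean was -1.05 ± 0.38 (95% interval -1.36 to -0.74, adjusted p = 7.85e-04), and 41 of 12724 probes had a lower mean.

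Pros1 encodes protein S, which is also an anticoagulant cofactor of activated protein C, and was measured by probe 6684 (Entrez gene 19128). With treated RNA in Cy5 its ratios were 0.71, 1.01 and 1.25, and they were 0.40, 1.08 and 1.00 in Cy3 with the sign turned. All 6 arrays were above 0, and set 1 was again lowest in both orientations, as for Axl. The mean was 0.91 ± 0.31 (95% interval 0.63 to 1.19, adjusted p = 9.20e-04), and 462 of 12724 probes had a higher mean. The ratio of Pros1 exceeded that of Gas6 by 1.96 ± 0.56, and on all 6 arrays. With ratios of 0 kept as values, 8.64% of 16281 probes were called, 5.55% as higher and 3.1% as lower, and the calls of both ligands were lost, at adjusted p = 0.0756 for Pros1 and 0.0805 for Gas6 (limma). Neither probe has a ratio of 0, so their own means were identical there, and Axl still passed (adjusted p = 0.0304).

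Mfge8, the bridge to integrins, was measured by probe 4699 (Entrez gene 17304). Its ratios were 0.11, 0.13 and -0.06 on the Cy5 arrays, and 0.07, -0.41 and -0.26 on the turned Cy3 arrays. As for Mertk, 3 arrays lay above and 3 below 0. The mean was -0.07 ± 0.14 and did not pass (adjusted p = 0.628, limma), with a 95% interval from -0.28 to 0.14.

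Ordered by mean ratio, the probes ran from Axl through Pros1 and Tyro3 probe 988 to Tyro3 probe 7385, Mertk, Mfge8, Tyro3 probe 15685 and Gas6. Axl stood above Pros1 by 1.77 ± 0.06 and Pros1 above Tyro3 probe 988 by 0.57 ± 0.17, each on all 6 arrays. Both Axl and Pros1 were lowest in set 1, and the SD of their difference was smaller than that of either mean. Tyro3 probe 988 stood above probe 7385 by 0.27 ± 0.17, on 4 of 6 arrays. The next neighbours, from Tyro3 probe 7385 down to Tyro3 probe 15685, differed by 0.02 ± 0.13, 0.12 ± 0.26 and 0.03 ± 0.28, all within the spread of the sets. Gas6 lay below Tyro3 probe 15685 by 0.95 ± 0.64, on all 6 arrays.

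**Figure D2:**
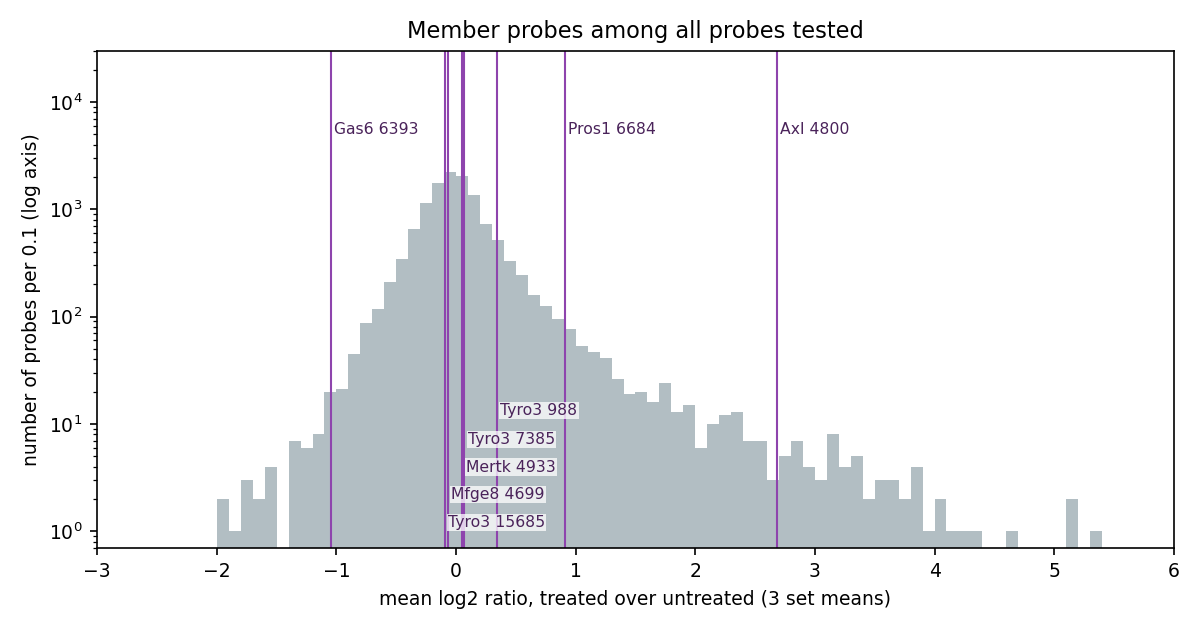
Grey bars count all 12724 probes tested (y axis, log scale) by mean log2 ratio of treated over untreated cells (x axis), and purple lines mark the 8 member probes. Axl at 2.68 lies in the sparse upper tail, Pros1 at 0.91 on the upper shoulder and Gas6 at -1.05 in the lower tail, while the other member probes lie between -0.10 and 0.34.

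Both dye orientations gave the same direction for Axl, Pros1 and Gas6. For Axl the mean over the 3 arrays with treated RNA in Cy5 was 2.86, and over the 3 turned arrays with it in Cy3 it was 2.50. For Pros1 these means were 0.99 and 0.83, and for Gas6 they were -0.92 and -1.17. The dye effect, tested with limma on ratios that had not been turned, passed for 0.181% of probes and for 0 of the 8 member probes (adjusted p = 0.131 to 0.984). Tyro3 probe 988 had the widest gap between orientations among the members, with 0.55 in Cy5 and 0.13 in Cy3.

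**Figure D3:**
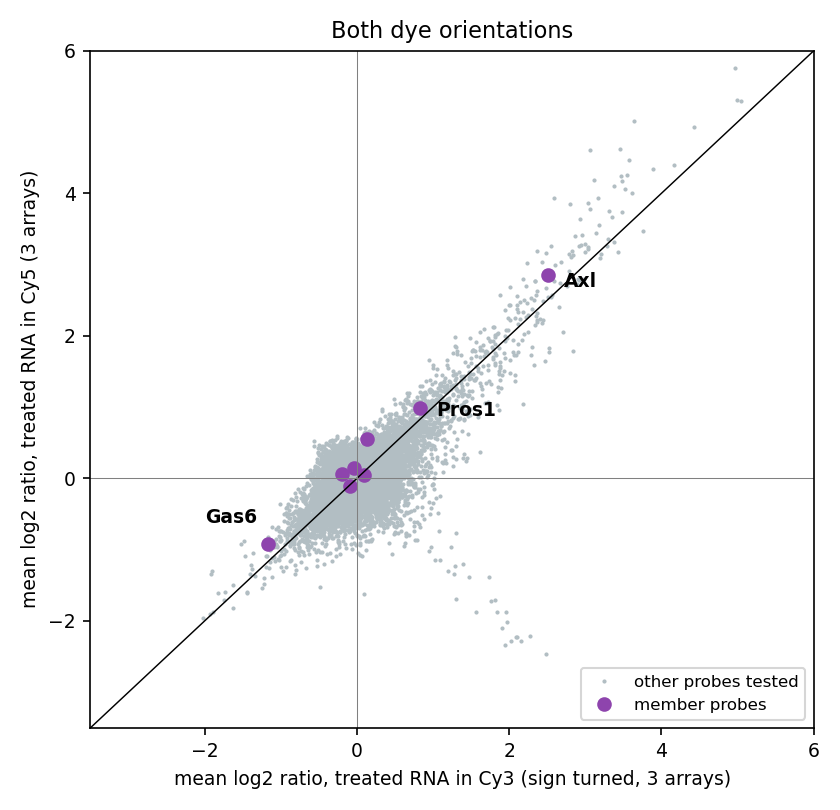
Each point is 1 probe, with its mean log2 ratio of treated over untreated cells on the 3 arrays with treated RNA in Cy3 (x axis, sign turned) and on the 3 arrays with treated RNA in Cy5 (y axis), and the black line marks equality. Axl, Pros1 and Gas6 lie close to the line, at 2.50 and 2.86, 0.83 and 0.99, and -1.17 and -0.92. Points at lower right are probes with a mean above 0 with treated RNA in Cy3 and below 0 in Cy5.

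The probes whose 6 turned ratios lay nearest to those of Axl, by root mean square difference among 11058 candidates with 1 gene symbol, were those of Crispld2 (0.218), Cd5l (0.245), Oasl2 (0.257), Ifit1 (0.261) and Mx2 (0.279). Crispld2 encodes a secreted LPS-binding protein and averaged 2.80 ± 0.46. Cd5l, a scavenger-receptor protein secreted by macrophages, averaged 2.58 ± 0.14. Oasl2, Ifit1 and Mx2, each an interferon-induced gene, averaged 2.74 ± 0.61, 2.85 ± 0.44 and 2.49 ± 0.39. The probes nearest to Gas6 were those of the integrin Itga4 (0.272), the receptor Tnfrsf17 (0.289), Tmem273 (0.290), the glutathione synthesis gene Gclc (0.307) and the diadenosine hydrolase Fhit (0.313), with mean ratios from -1.21 to -0.96. This measure follows mainly the size of the ratio over 6 arrays, and it describes these arrays only.

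Other genes of apoptotic cell uptake were read from 5 lists of 117 symbols, of which 86 were on the arrays. Over all 5 lists, 20 of 113 tested probes were higher (17.7%) and 9 were lower (7.96%) in treated cells. The median ratio was 0.01. For all probes tested, 14.8% were higher and 12.2% lower, with a median of -0.01. In the order below, the lists had 12%, 10.3%, 21.1%, 25% and 25% of tested probes higher. They had 12%, 6.9%, 15.8%, 3.57% and 0% lower.

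Among the other phosphatidylserine receptors and bridging molecules, 3 of 25 tested probes rose and 3 fell, with a median of 0.01. The scavenger receptor Msr1 rose by 1.66 ± 0.04 (3.17-fold, adjusted p = 3.74e-06), the fatty acid and apoptotic cell receptor Cd36 by 1.12 ± 0.18 and the integrin subunit Itgav, which pairs with other subunits to receive Mfge8, by 0.77 ± 0.23. The engulfment receptor Lrp1 fell by 0.96 ± 0.24 (adjusted p = 3.71e-04), the lipoprotein receptor Scarb1 by 0.33 ± 0.12 and Tub, described in mice as a further ligand of Mertk, by 0.30 ± 0.08. A second Tub probe had no ratio on 1 array and was not tested, and its 2 complete sets averaged 0.16 and 0.13, opposite in sign to the tested probe. The probes of Itgb3 and Itgb5, partners of Itgav, did not pass, at 0.11, 0.10 and -0.23. Nor did those of Lgals3, another reported Mertk ligand, at 0.08 and 0.0013.

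In the engulfment machinery, which links receptors to actin, 3 of 29 tested probes rose and 2 fell. The exchange factor Vav1 rose on both probes, by 0.53 ± 0.08 and 0.52 ± 0.14, and the GTPase Rac2 rose by 0.42 ± 0.04. Dock2, an exchange factor for Rac in blood cells, fell by 0.42 ± 0.02, and the adaptor Gulp1 fell by 0.53 ± 0.32 on 5 of 6 arrays, with a second probe that was not tested at -0.15 and -0.27 in its 2 complete sets. Abca1, a lipid transporter that macrophages raise after taking up apoptotic cells, had no ratio on 1 array and was not tested, and it lay between 0.36 and 2.17 on the other 5.

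Among find-me, eat-me and don't-eat-me signals, 4 of 19 tested probes rose and 3 fell. Cd47, the surface protein that tells phagocytes not to engulf a cell, rose on all 3 of its probes, by 1.05 ± 0.14, 1.04 ± 0.03 and 0.48 ± 0.40. Its receptor on phagocytes, Sirpa, fell on both probes, by 0.38 ± 0.04 and 0.41 ± 0.14. Cx3cr1, the receptor for the find-me signal fractalkine, fell by 1.02 ± 0.24 (adjusted p = 2.60e-04), and its other probe was listed at 0 on every array. Plscr1, a phospholipid scramblase that interferon induces, rose by 0.44 ± 0.13.

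Of the genes of TAM signalling, feedback and protein processing, 7 of 28 tested probes rose and 1 fell, with a median of 0.01. The cytokine signalling inhibitor Socs1 rose on both probes, by 1.02 ± 0.23 and 0.71 ± 0.11 (adjusted p = 2.28e-04 and 6.36e-04, limma). The type I interferon receptor subunit Ifnar1 rose by 0.52 ± 0.09 and 0.41 ± 0.08 on its 2 probes, and Ifnar2 rose by 0.50 ± 0.26 on 1 probe and stood at 0.12 ± 0.03 on the other, which did not pass. Of the 2 probes of Adam17, the protease that sheds Mertk from the cell surface, 1 rose by 0.39 ± 0.22 and the other stood at 0.27 ± 0.19 without passing. The adaptor Grb2 rose on 1 of 3 probes, by 0.34 ± 0.04, and the adaptor Shc1 fell by 0.43 ± 0.29. Ggcx and Vkorc1, enzymes of the vitamin K cycle that prepares the Gla domains of Gas6 and protein S, did not pass, at -0.05, -0.28 and 0.07. Socs3 stood at -0.22 ± 0.25 and did not pass, and its sign differed between the dye orientations.

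Of nuclear receptors and factors linked to uptake genes, 3 of 12 tested probes rose and 0 fell, with a median of 0.15. Nr4a1, an orphan nuclear receptor, rose by 0.66 ± 0.13, the factor Klf2 by 0.47 ± 0.43 on 5 of 6 arrays, and Cebpb by 0.33 ± 0.17 on 1 of its 2 probes. Nr1h3, the oxysterol receptor LXR-alpha through which mouse macrophages raise Mertk, stood at 0.28 ± 0.14 and did not pass (adjusted p = 0.0519, limma). Pparg stood at 0.12 ± 0.12 on the probe that could be tested. With ratios of 0 kept as values, 31, 33, 24, 32 and 14 probes were tested in the 5 lists as ordered here. The counts of higher and lower probes were 2 and 0, 2 and 1, 2 and 1, 5 and 0, and 1 and 0. Over all 16281 probes, 5.55% were higher and 3.1% lower at this setting. The calls of Lrp1, Itgav, Scarb1, Tub, Gulp1, Cx3cr1, Plscr1, Ifnar2, Adam17, Shc1, Klf2, Cebpb and 1 probe each of Vav1, Sirpa and Cd47 were lost there (adjusted p = 0.0518 to 0.283).

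**Figure D4:**
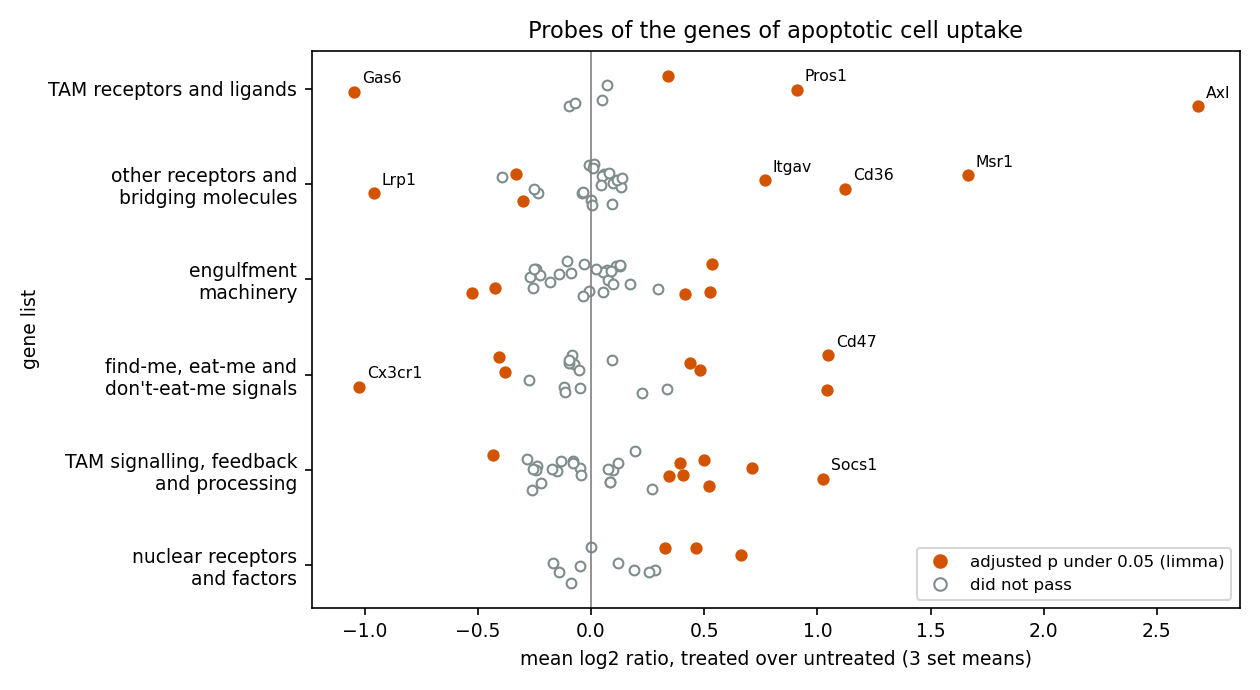
Each point is the mean log2 ratio of treated over untreated cells (x axis) of 1 tested probe, in rows by gene list (y axis), filled where limma's adjusted p was under 0.05. Axl at 2.68 is the highest point, ahead of Msr1 at 1.66 and Cd36 at 1.12, and Gas6 at -1.05, Cx3cr1 at -1.02 and Lrp1 at -0.96 are the lowest.

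The deposited values are ratios, so they give no level of any gene in either group, and ratios of different probes do not rank the genes by abundance. In such bulk RNA, fewer cells that express a gene and less RNA per cell cannot be told apart. The direction of the ratio rests on the dye labels and on the LPS-induced genes Nos2, Tnf, Il6 and Il1b, whose 9 probes averaged 0.88 to 3.81 and were above 0 on all arrays. Of 8 tested probes of macrophage markers, 3 rose and 1 fell, where 14.8% of all probes tested were higher and 12.2% lower. The receptor Fcgr1 rose by 1.96 ± 0.15, Adgre1, a widely used macrophage surface antigen, rose by 0.94 ± 0.09, Ptprc rose by 0.40 ± 0.01 on 1 of 3 probes, and Csf1r fell by 0.53 ± 0.22, a call lost with zeros kept (adjusted p = 0.0977, limma). Markers of T cells, B cells, fibroblasts, epithelium, endothelium and Sertoli cells had 15 tested probes, of which 2 rose and 0 fell. Dcn, a proteoglycan of fibroblasts, rose by 2.68 ± 0.95, a call lost with zeros kept (adjusted p = 0.0789, limma). The other fibroblast markers, Col1a1, Col1a2 and Col3a1, did not pass, at 0.01, 0.07 and -0.21. Cd79a, part of the antigen receptor of B cells, rose by 0.63 ± 0.11. The tested probes of another B cell marker, Ms4a1, did not pass, at -0.08 and 0.12. The part of such cells in the ratios of Axl, Pros1 and Gas6 was not tested.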

How the data were processed

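RNA of treated and untreated RAW 264.7 cells was compared within each of 6 two-colour arrays, per the labels. The authors deposited 1 value per probe and array, read here as a log2 ratio of Cy5 over Cy3. The base of the logarithm, the scanner and any background or dye correction were not given in the sources used here. Ratios reach 6.12, too large for log10, and a natural logarithm would make every fold larger. The array medians were 0. Exact zeros (7.97% to 17.9% of an array) were treated as missing, probable placeholders. The number of arrays limits the precision. All per-sample columns were mapped.

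Ratios of the 3 arrays that held treated RNA in Cy3 were multiplied by -1, both orientations of a set were averaged, and 3 set means were tested against 0 with limma 3.58.1 (R 4.3.3; lmFit, eBayes, two-sided, Benjamini-Hochberg adjustment over 12724 probes, the tests being of log2 ratios). The set numbers are treated as units out of caution. The procedure was tested on simulated data with noise independent between arrays, so spread shared within a set was not simulated. Probes took gene names from the platform annotation: 13738 had 1 symbol, of which 13694 matched RefSeq (GRCm38.p6) by gene ID with 0 symbols changed. Named genes are the members, the 3 highest and 3 lowest called probes of each list, the 5 probes nearest to Axl and to Gas6, and Il1b, Il6, Tnf and Nos2, plus some list members singled out after their values were seen. Cell type markers were also read. The members and lists were chosen with earlier results of these data known. Alternatives changed the treatment of zeros, the probe filter, the block, the scaling, the centring, the averaging over probes, the eBayes option, and left out each set and each array.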

Additional observations from a re-analysis of the deposited data

Results flagged for a closer look

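On 9 of the 163 tested probes of the members, gene lists, markers and nearest genes, 1 array stood apart from the other 5 by a wide gap. None of the 9 was a member probe, and chance flags about 1 in 20 groups. On Tnf probe 12240 the set 2 array that held treated RNA in Cy5 read 1.47, above the others. The arrays of that set and orientation also stood apart on Ifnar1 probe 18543 (0.11, low), Rhog (-0.54, low), Rxrb probe 4174 (-0.30, low) and Ms4a1 probe 4078 (0.71, high). The set 2 array that held treated RNA in Cy3 stood apart on Olr1 (0.81, high) and P2ry2 probe 10538 (-0.68, low). The set 3 array with Cy5 stood apart on Trem2 probe 6789 (-0.75, low), and the set 1 array with Cy3 on Was (-0.31, low).

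On 9 of these probes, none of them a member, every array of 1 dye orientation had the opposite sign to every array of the other. The mean of the Cy5 arrays minus that of the turned Cy3 arrays was -0.50 for Trem2 probe 6789, 0.53 and -0.49 for the Rab17 probes, 0.21 for Cdc42 and -0.39 for Panx1. It was -0.90 for Socs3, 0.23 for Rxrb probe 9437, -1.06 for Rxra and 0.74 for Amh. The dye effect of these probes did not pass (limma, adjusted p = 0.0977 to 0.264). Random signs would give some probes of this kind, and their share over all probes is not given here.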

How the results depend on the processing

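Axl passed under all 17 alternatives tried (2.56 to 2.89). Pros1 passed in 16 (0.80 to 1.09 over all 17) and Gas6 in 16 (-1.21 to -0.84), both being lost with zeros kept as values. Mertk, Mfge8 and Tyro3 probes 7385 and 15685 passed in 0 alternatives, and Tyro3 probe 988 passed in 8 of 16 (0.25 to 0.42). With zeros kept, 903 probes were higher and 504 lower, against 1887 and 1556 with zeros missing, and in the gene lists 12 and 2, against 20 and 9. Averaging probes per gene gave 13 higher in the lists, where fewer units were tested. With the set as a replicate block, 1885 probes were higher and 1520 lower. With no replicate block they were 2242 and 2051, and in the lists 14 probes were lower. Deviations of same-numbered arrays of opposite orientation correlated at 0.53, 0.08 and 0.17, and those of differently numbered ones at -0.35 to 0.13. These ranges overlap, so the numbers are not shown to pair the arrays, though 5 of 6 arrays correlated best with their own number. Leaving out 1 set or 1 array gave 1379 to 2208 higher and 851 to 1815 lower probes, and 15 to 23 higher and 6 to 15 lower in the lists. Without set 2, 851 probes were lower. The lists held 15 lower probes without the set 1 array that held treated RNA in Cy5 and 14 without the corresponding set 2 array. Single arrays were left out in the fit over 6 arrays with a dye term and no replicate block. With all 6 arrays, that fit already gave 14 lower probes in the lists. The causes of these shifts were not tested. Signal over background is unknown for these arrays, which limits what can be said of probes with small ratios.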
